A study of Mus musculus with 6 samples.

Results

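The 10 immediate early genes Fos, Fosb, Jun, Junb, Jund, Egr1, Atf3, Ier2, Ier3 and Btg2 were followed across 6 droplet single-cell RNA-seq libraries of the developing mouse ovary and of its counterpart grown from embryonic stem (ES) cells. They were found by symbol among the 31053 genes listed, and all 10 had an entry. The Induced D6 library holds gonad somatic cells derived from 129svj x C57BL/6J ES cells, which had been grown as aggregates first in CHIR, BMP4 and EGF, then in BMP4, retinoic acid, PD0325901 (an inhibitor of the ERK kinase MEK), SHH and EGF, and last in BMP4 and FGF9, each for 2 days. The other 5 libraries hold XX gonads of the ICR strain, taken on the embryonic days E10.5, E11.5, E12.5, E13.5 and E14.5. Unless stages are named, in vivo values are given in that order. Every library was made from freshly isolated cells that papain had released over 30 min, and an undissociated sample was not analysed here. Stage or origin and the 1 library that stands for it therefore cannot be told apart, strain differs together with origin, and no test between groups was possible.

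Immediate early genes are transcribed within minutes of a stimulus from factors already present in the cell, without new protein synthesis, and their transcripts decay fast. Growth factors acting through ERK and serum response factor, cyclic AMP acting through CREB, and many kinds of stress induce them. Fos, Fosb, Jun, Junb and Jund encode subunits of the dimeric transcription factor AP-1, Egr1 a zinc finger transcription factor, Atf3 a stress-induced relative of the AP-1 and CREB proteins, and Btg2 an antiproliferative protein that recruits the CCR4-NOT deadenylase. Enzymatic release of cells from a tissue is itself known to induce these genes, so single-cell libraries can carry both what the tissue expressed and what its dissociation added.

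The promoters of Fos, Atf3 and Btg2 are shown because, among the windows searched, these 3 match the letters that CREB recognises. The sequences are from RefSeq on GRCm38.p6 and run from 250 bases before the annotated start to 50 bases after it, in the direction of transcription. Capitals mark TGACGTCA (the full cyclic AMP response element, CRE), TGACGT or its reverse ACGTCA (the short CRE), and, in Btg2, a 9-letter match to the EGR1 recognition sequence. Fos lies at chr12:85473890-85477273 on the plus strand of GRCm38, and its promoter window spans chr12:85473640-85473939. Atf3 lies at chr1:191170296-191218039 on the minus strand, and its window spans chr1:191183284-191183583. Btg2 lies at chr1:134075170-134079120 on the minus strand, and its window spans chr1:134079106-134079405.
Fos: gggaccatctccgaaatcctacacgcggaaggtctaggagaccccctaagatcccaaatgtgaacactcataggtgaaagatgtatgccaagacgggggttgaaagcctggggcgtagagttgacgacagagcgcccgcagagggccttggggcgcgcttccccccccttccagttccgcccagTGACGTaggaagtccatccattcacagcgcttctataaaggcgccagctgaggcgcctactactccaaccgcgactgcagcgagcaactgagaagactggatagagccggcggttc
Atf3: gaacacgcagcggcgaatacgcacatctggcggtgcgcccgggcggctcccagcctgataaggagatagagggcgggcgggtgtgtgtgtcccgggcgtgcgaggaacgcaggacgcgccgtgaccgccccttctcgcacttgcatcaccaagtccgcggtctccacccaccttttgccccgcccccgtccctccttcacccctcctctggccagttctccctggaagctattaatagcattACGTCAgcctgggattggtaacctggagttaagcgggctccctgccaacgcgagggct
Btg2: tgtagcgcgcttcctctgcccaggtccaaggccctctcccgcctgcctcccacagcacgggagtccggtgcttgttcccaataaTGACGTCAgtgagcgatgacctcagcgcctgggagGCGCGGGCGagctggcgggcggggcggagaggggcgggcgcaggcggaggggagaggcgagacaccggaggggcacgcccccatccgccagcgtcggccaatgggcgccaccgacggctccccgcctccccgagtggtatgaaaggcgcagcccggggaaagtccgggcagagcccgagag
In the Fos window the short CRE begins 66 bases and a TATAAA 33 bases before the start. In the Atf3 window the short CRE begins 8 bases before the start used by RefSeq. In the Btg2 window the full CRE begins 166 bases and the EGR match 131 bases before the start.

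Promoter windows of 8 of the 10 genes were searched. Windows on chromosome 18, where Egr1 lies, were left out of the search, and no window was found for Ier2. Both strands of each window were searched for TGACGTCA, which 1.79% of 32851 mouse promoters of that length hold, for TGACGT (7.51%, full elements included), for the AP-1 letters TGANTCA (7.81%), for the EGR letters GCGNGGGCG (5.55%), for TATAAA (13.6%) and for the serum response factor's CArG box (1.63%). The Fosb window held an EGR match and the Junb window a TATAAA. None of the 8 windows held a CArG box or AP-1 match, and those of Jun, Jund and Ier3 held none of the motifs. The Jund window (chr8:70697489-70697788) lies wholly before position 70698949, where the gene model read for Jund begins, so it does not describe the letters at that start. The search did not reach beyond 250 bases before the start, so it does not tell whether a gene holds a motif further off. Such matches describe letters in a window and are not evidence of binding.

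Across the 6 libraries, between 2661 and 7067 cells were kept of 2766 to 7564 deposited barcodes, with 37606947 to 52146419 UMIs (unique molecular identifiers, 1 per captured transcript) per library. Clusters were formed without the 10 genes and without the stress gene lists described further on, and were called "-like" from marker genes. Gonadal-epithelium-like cells join supporting-lineage-like cells, marked by genes such as Wnt4, Kitl and Runx1, and coelomic-epithelium-like cells, marked by genes such as Upk3b and Krt19. No margin was required between these parts, so a cluster near both took the name with the larger share of markers. Wherever the classes were found, 12 or 13 of 13 supporting-lineage markers and 9 to 12 of 13 coelomic markers reached 10 CPM in their class (UMIs of a gene per 1000000 UMIs of the class), and at E10.5 the class held coelomic-epithelium-like cells only. The stroma-like class at E10.5 is less well marked than the later ones, with 10 of 16 markers above the rest of its library. Between 1.32 and 25.9% of cells stayed unnamed. The libraries share 17 to 114 barcodes per pair. The E13.5 and E14.5 libraries share 114, of which 67 were kept in both and 43 fell in an unnamed cluster of each.

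In gonadal-epithelium-like cells of the in vivo series the 10 genes together took 1487, 1496, 1871, 3368 and 5618 CPM at E10.5, E11.5, E12.5, E13.5 and E14.5. The exact Poisson 95% intervals were 1447 to 1527 at E10.5, 1480 to 1513 at E11.5 and 5579 to 5658 at E14.5. These and all other intervals cover counting error only. The summed level was thus close at E10.5 and E11.5 and highest at E14.5. All 10 genes were at least 2-fold higher at E14.5 than at E11.5. Of the 8577 genes that reached 10 CPM at either stage, 8% were as much higher and 14.2% as much lower, and the median log2 ratio was 1.97 for the 10 genes and -0.16 for all genes.

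**Figure D1:**
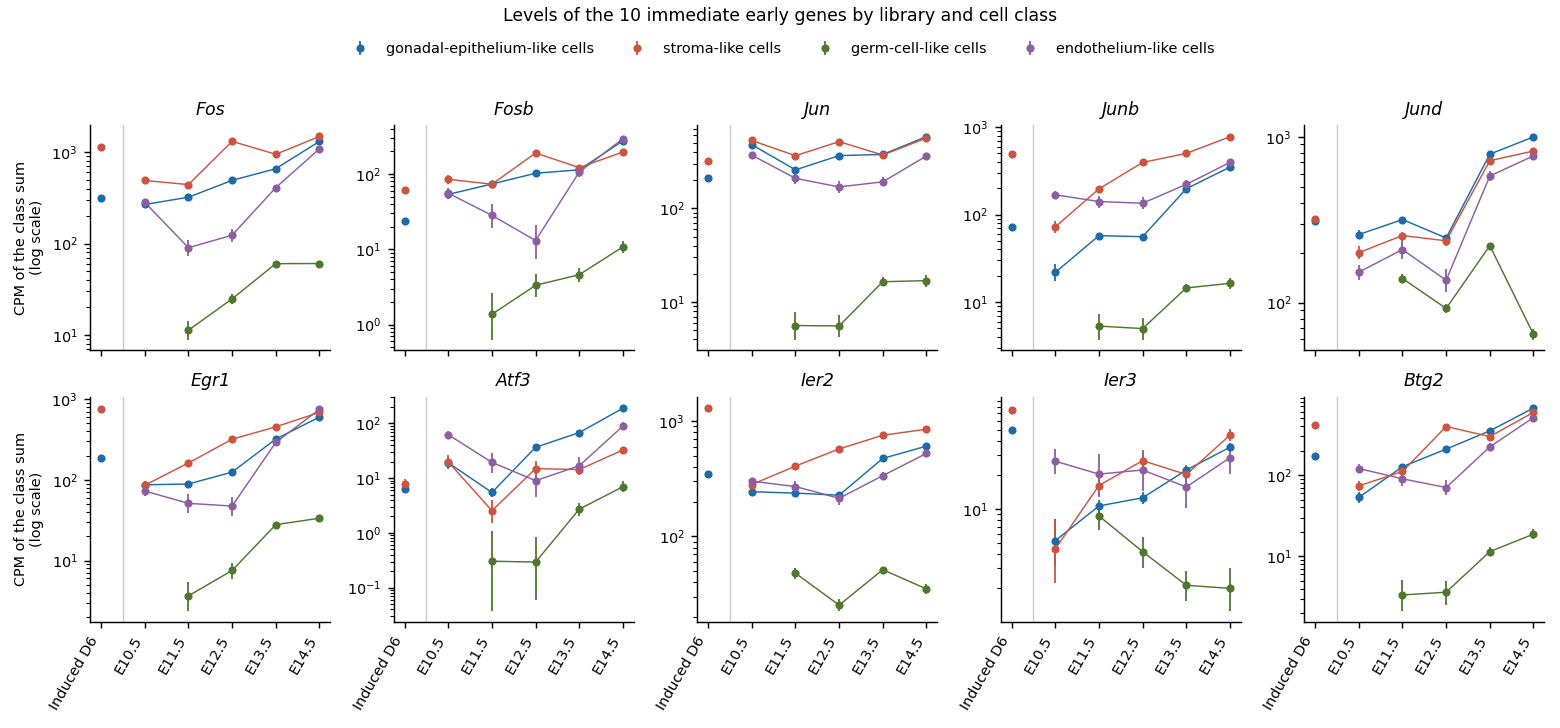
Each panel plots 1 gene. The vertical axis gives its CPM (log scale) in the summed counts of a cell class, the horizontal axis the library, with Induced D6 left of the in vivo stages. Colours are cell classes and bars exact Poisson 95% intervals. Somatic classes are highest at E14.5 for most genes, Fos reaching 1311 CPM in gonadal-epithelium-like cells, and germ-cell-like cells lie far below them.

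Among the FOS genes, which need a JUN partner to bind DNA, Fos stood at 312 CPM in Induced D6 gonadal-epithelium-like cells and at 267, 321, 491, 659 and 1311 CPM in vivo. Fosb had 23.8 CPM in Induced D6 and 53.7, 73.8, 103, 114 and 277 CPM in vivo. Both were highest at E14.5, and Fosb was lowest in Induced D6. At E14.5 against E11.5, Fos was 4.08-fold higher (95% interval 3.97 to 4.19) and Fosb 3.75-fold higher (3.54 to 3.98).

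The JUN genes, whose products pair with FOS proteins or with one another, did not share 1 course. Jun had 213 CPM in Induced D6 and 478, 257, 365, 376 and 582 CPM in vivo. Junb had 72.5 CPM in Induced D6 and 21.8, 57.5, 56.0, 198 and 349 CPM in vivo. Jund had 309 CPM in Induced D6 and 257, 317, 246, 786 and 999 CPM in vivo. Jun was already high at E10.5, so that E14.5 exceeded E10.5 by only 1.22-fold (1.16 to 1.29), whereas it exceeded E11.5 by 2.26-fold (2.19 to 2.34). Junb, often described as an antagonist of Jun in growth control, was lowest at E10.5, and E14.5 stood 16.0-fold above it (12.8 to 20.2) and 6.06-fold above E11.5 (5.69 to 6.46). Jund, which is known to be expressed more steadily than its relatives, differed mainly between E13.5 and E12.5, being 3.20-fold higher at E13.5 (3.10 to 3.30), and by 1.27-fold (1.24 to 1.30) between E14.5 and E13.5.

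Jun and Jund have 1 exon each, and annotated antisense transcripts over them, Junos and Gm11175, held 357 and 237 UMIs in all 6 libraries together. Junb lies at chr8:84974484-84978718 on the minus strand and overlaps Prdx2, a peroxiredoxin gene abundant in red cells, on the plus strand. Whether the counting used strand is not given in the sources used here. Erythroid-like cells, where Prdx2 was at 3362 CPM at E11.5 and 3561 CPM at E10.5, had Junb at 17.4 CPM at E11.5 and 23.2 CPM at E10.5. In gonadal-epithelium-like cells Prdx2 was lower at E14.5 than at E11.5 (563 against 1177 CPM) while Junb was higher.

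Egr1, which ERK signalling induces through serum response factor, had 188 CPM in Induced D6 gonadal-epithelium-like cells and 86.8, 88.9, 125, 321 and 601 CPM in vivo. Its level at E14.5 was 6.75-fold that at E11.5 (6.43 to 7.10). Atf3, the stress-induced repressor whose promoter is shown above, had 6.43 CPM in Induced D6 and 19.1, 5.48, 36.6, 67.9 and 189 CPM in vivo. It was near its lowest in Induced D6 and E11.5 and had the widest ratio of the 10 genes at E14.5 against E11.5, 34.5-fold (28.7 to 41.9). Btg2, a target of p53 as well as of growth factors, had 172 CPM in Induced D6 and 53.1, 127, 209, 349.9 and 669 CPM in vivo, and was 5.28-fold higher at E14.5 than at E11.5 (5.06 to 5.51). All 3 were highest at E14.5.

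Ier2, a nuclear protein induced early by growth factors, had 349 CPM in Induced D6 gonadal-epithelium-like cells and 244, 237, 228, 475 and 607 CPM in vivo. Ier3, a small protein tied to cell survival and ERK signalling, had 50.1 CPM in Induced D6 and 5.25, 10.6, 12.54, 22.0 and 35.0 CPM in vivo. Ier3 was the one gene of the 10 whose Induced D6 level exceeded every in vivo stage in this class. At E14.5 against E11.5, Ier2 was 2.56-fold higher (2.47 to 2.65) and Ier3 3.29-fold higher (2.81 to 3.87).

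The difference was not confined to 1 step between libraries. At E12.5 against E11.5, 1 of the 10 genes, Atf3, was at least 2-fold higher (log2 ratio 2.74) and none lower, while 0.833% of 7922 genes were higher and 1.14% lower. At E13.5 against E12.5, Junb (log2 ratio 1.82), Jund (1.68), Egr1 (1.36) and Ier2 (1.06) were at least 2-fold higher and none lower, while 3.81% of 8118 genes were higher and 5.69% lower. At E14.5 against E13.5, Atf3 (1.48) and Fosb (1.28) were at least 2-fold higher and none lower, while 0.745% of 8050 genes were higher and 0.261% lower. Fos missed the limit narrowly there, with a ratio of 1.99 (1.95 to 2.03). At E14.5 against E10.5, 9 genes were higher, all but Jun, and none lower, while 18.3% of 8848 genes were higher and 23.1% lower. These steps share libraries, so they are not independent of one another. The E13.5 and E14.5 samples are numbered apart from those of the earlier stages and Induced D6. Comparisons of either with an earlier stage therefore cross that divide as well. Whether those libraries were prepared apart was not tested.

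Both parts of the gonadal epithelium stood higher at E14.5 in sum, and they differed by gene. In supporting-lineage-like cells, the precursors of granulosa cells, the 10 genes took 5802 CPM at E14.5 and 1659 CPM at E11.5. In coelomic-epithelium-like cells, the surface layer, they took 5039 CPM at E14.5 and 1249 CPM at E11.5. Atf3 was the higher in the surface layer at each stage from E11.5, with 373 CPM in coelomic-epithelium-like and 131 CPM in supporting-lineage-like cells at E14.5, and 181 against 28.2 CPM at E13.5. Junb was the higher in the supporting lineage at those stages, with 196 CPM in coelomic-epithelium-like and 397 CPM in supporting-lineage-like cells at E14.5. In Induced D6 cells the supporting-lineage-like part was the higher in sum, with 1271 CPM in coelomic-epithelium-like and 2422 CPM in supporting-lineage-like cells.

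Stroma-like cells, the mesenchyme of the gonad, gave the same direction for E14.5 against E11.5 with other starting levels. Together the 10 genes took 4878 CPM in Induced D6 stroma-like cells and 1842, 2029, 3979.8, 4201 and 6045 CPM in vivo. At E14.5 against E11.5, 9 of the 10 genes were at least 2-fold higher and none lower, while 4.26% of 8398 genes were higher and 14.7% lower. The median log2 ratio was 1.72 for the 10 genes and -0.34 for all genes. Jun was the exception, with 562 CPM at E14.5 and 364 CPM at E11.5, a log2 ratio of 0.62.

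Fos in stroma-like cells had 1130.0 CPM in Induced D6 and 489.6, 442, 1313, 948 and 1484 CPM in vivo, so that E12.5 already lay near E14.5 and above E13.5. Junb had 491 CPM in Induced D6 and 72.4, 197, 395, 501 and 776 CPM in vivo. Egr1 had 761 CPM in Induced D6 and 85.8, 162, 319, 455 and 686 CPM in vivo. Junb and Egr1 thus stood higher at each later stage, and Egr1 in Induced D6 exceeded all of them. Btg2 had 417 CPM in Induced D6 and 73.6, 111, 396, 298 and 592 CPM in vivo. Atf3 stayed low in stroma-like cells, with 7.76 CPM in Induced D6 and 19.8, 2.55, 14.9, 14.3 and 32.8 CPM in vivo. Its E14.5 over E11.5 ratio of 12.9 rests on few E11.5 counts and has an interval of 8.04 to 21.8.

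The other 5 genes took several courses in stroma-like cells. Jun had 316 CPM in Induced D6 and 529, 364, 514, 370.3 and 562 CPM in vivo. Fosb had 62.0 CPM in Induced D6 and 85.4, 73.2, 191, 122 and 197 CPM in vivo. Jun and Fosb both stood lower at E13.5 than at the stages beside it. Jund had 319 CPM in Induced D6 and 200.3, 254, 236, 718 and 821 CPM in vivo, with its main difference between E13.5 and E12.5 as in the epithelium. Ier2 had 1299 CPM in Induced D6 and 282, 407, 574, 755 and 851 CPM in vivo. Ier3 had 73.8 CPM in Induced D6 and 4.45, 16.1, 26.7, 20.1 and 44.8 CPM in vivo. Ier2 and Ier3 were higher in Induced D6 stroma-like cells than at any in vivo stage.

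Endothelium-like cells, sampled with 174, 52, 54, 67 and 71 cells in vivo, also stood highest at E14.5. Their 10-gene sum was 1611, 1129, 939.9, 2391 and 4809.7 CPM. Fos had 282, 89.98, 123, 409 and 1088 CPM, and Egr1 72.7, 51.2, 47.4, 291 and 749 CPM. Both were lowest at E11.5 or E12.5. At E14.5 against E11.5, 7 of the 10 genes were at least 2-fold higher and none lower, while 20.2% of 9016 genes were higher and 17.6% lower. Egr1 was 14.6-fold higher (11.2 to 19.4) and Fos 12.1-fold higher (9.90 to 14.9), while Ier2, Jun and Ier3 had log2 ratios of 0.95, 0.79 and 0.48.

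Germ-cell-like cells of the same suspensions held little of these transcripts at any stage. Their 10-gene sum was 227, 172, 412 and 265 CPM at E11.5, E12.5, E13.5 and E14.5, in 311, 581, 1395 and 1160 cells. Between 9 and 12 of their 12 markers reached 10 CPM per stage, and the 3 below it at E14.5 were Dnd1, Tfap2c and Nanos3, genes of early germ cells. Of the 8 genes at 10 CPM or more at E14.5 or E11.5, 6 were at least 2-fold higher at E14.5 and 1, Jund, at least 2-fold lower, where 29.5% of 8353 genes were higher and 25.6% lower. Of those 6, only Fos also reached 10 CPM at E11.5. Fosb, Jun, Junb, Egr1 and Btg2 entered the count through E14.5 alone, so nothing about the 10 genes as a group is read from it. Fos had 11.3, 24.8, 60.3 and 60.5 CPM, and Egr1 3.65, 7.53, 27.8 and 33.5 CPM. The 2 genes left out of the count, Atf3 and Ier3, stayed under 10 CPM at both stages. Atf3 rested on 2 UMIs at E11.5, and its E14.5 over E11.5 ratio of 22.9 has an interval of 6.14 to 193. Ier3 was 4.35-fold lower at E14.5 (2.62 to 7.47), with 22 UMIs there against 57 at E11.5.

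Jund had 139.9, 92.3, 221 and 64.4 CPM in germ-cell-like cells in order of stage. As in gonadal-epithelium-like cells it was lower at E12.5 than at E11.5 and higher at E13.5 than at E12.5, but at E14.5 against E13.5 it was lower in germ-cell-like and higher in gonadal-epithelium-like cells. It was 2.17-fold lower at E14.5 than at E11.5 (1.97 to 2.40), whereas it was 3.15-fold higher in gonadal-epithelium-like cells (3.06 to 3.24). Ier2 had 47.9, 25.3, 51.4 and 35.0 CPM in the germ-cell-like cells of those stages.

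The germ-cell-like values were set against RNA that droplets pick up from the suspension. At E14.5 the 10 genes stood in germ-cell-like cells at 2.81 to 6.45% of their gonadal-epithelium-like level (median 4.66%), and 18 epithelial marker genes stood there at 1.16 to 8.37% (median 2.66%). The range of the 10 genes lay within that of the markers, although each gene lay above the markers' median. At E11.5 the markers stood at 0.512 to 21.6% (median 0.983%), at E12.5 at 0.421 to 32.8% (0.863%) and at E13.5 at 1.43 to 31.5% (3.31%). Jund stood at 44.1, 37.6 and 28.1% at these stages, above the markers' range at E11.5 and E12.5 and within it at E13.5. Ier3 stood at 81.6, 33.5 and 9.65%, likewise above the range at E11.5 and E12.5, though with an interval of 23.7 to 46.5% at E12.5 that reaches into it. Ier2 stood at 20.2, 11.1 and 10.8%, within the markers' range at each of the 3 stages. Fos stood at 3.51, 5.06, 9.14 and 4.61% of its epithelial level from E11.5 to E14.5. The markers' median share differed between these stages as well. At E14.5 all 10 genes were also at or below their level in the 39 erythroid-like cells, where they summed to 2144 CPM and the epithelial markers to 549.9 CPM, against 33.2 CPM for the markers in erythroid-like cells at E11.5. The part of such background in the germ-cell-like levels was not tested. At E11.5, E12.5 and E13.5, 5, 2 and 7 of the 10 genes lay at or below their level in the 78, 23 and 24 erythroid-like cells.

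The E10.5 library also held classes of trunk tissue around the gonad, and these ranged widely. Mesonephric-tubule-or-duct-like cells had the highest 10-gene sum there, 3111 CPM (2983 to 3243), and endoderm-like cells had 2308 CPM (2182 to 2438). Surface-ectoderm-like cells had 1616 CPM, the paraxial, limb and neural classes between 1046 and 1517 CPM, and erythroid-like cells 288 CPM. Jun in the mesonephric class, at 784 CPM, was its highest level among the 36 named class sums of the series. In whole-library sums, which need no cell class but follow the mix of cells, 8 of the 10 genes were at least 2-fold higher at E14.5 than at E11.5 and none lower, while 13.2% of 9057 genes were higher and 12% lower.

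Ordered over those 36 class sums, most genes peaked in an E14.5 somatic class. Fos and Junb were highest in E14.5 stroma-like cells, at 1484 and 776 CPM, and Atf3 in E14.5 coelomic-epithelium-like cells, at 373 CPM. Jund was highest in E14.5 supporting-lineage-like cells, at 1015 CPM. Fosb and Btg2 were highest in the same cells, at 297 and 669.9 CPM, but their intervals overlapped those of the next class, endothelium-like for Fosb (295 CPM) and coelomic-epithelium-like for Btg2 (666 CPM). Ier2 was highest in Induced D6 stroma-like cells. Egr1 and Ier3 peaked there too, with intervals that overlapped those of E14.5 endothelium-like cells for Egr1 and of Induced D6 supporting-lineage-like cells for Ier3. The lowest level was in germ-cell-like or erythroid-like cells of E11.5 or E12.5 for every gene but Ier3, which was lowest in neural-crest-or-peripheral-neuron-like cells of E10.5.

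By their 10-gene sum, Induced D6 cells stood below E12.5 in one part of the epithelium and above it in the other, and above it in the stroma. Their 10-gene sum was 1271 CPM in coelomic-epithelium-like cells, against 2026 CPM at E12.5, and 2422 CPM in supporting-lineage-like cells, against 1755 CPM at E12.5. Pooled as gonadal-epithelium-like cells it was 1696 CPM (1679 to 1713), against 1871 CPM (1852 to 1889) at E12.5, a nearness that rests on parts going opposite ways. Against E12.5, 1 of the 10 genes passed 2-fold upward and 2 passed it downward, where 12.1% of 8428 genes were higher and 4.14% lower. Ier3 was 3.99-fold higher in Induced D6 (3.48 to 4.59), Atf3 5.69-fold lower (4.75 to 6.85) and Fosb 4.31-fold lower (3.92 to 4.76). Jun and Fos had log2 ratios of -0.78 and -0.66, and Ier2, Egr1, Junb, Jund and Btg2 of 0.62, 0.59, 0.37, 0.33 and -0.28. The median was 0.03 for the 10 genes and 0.25 for all genes.

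**Figure D2:**
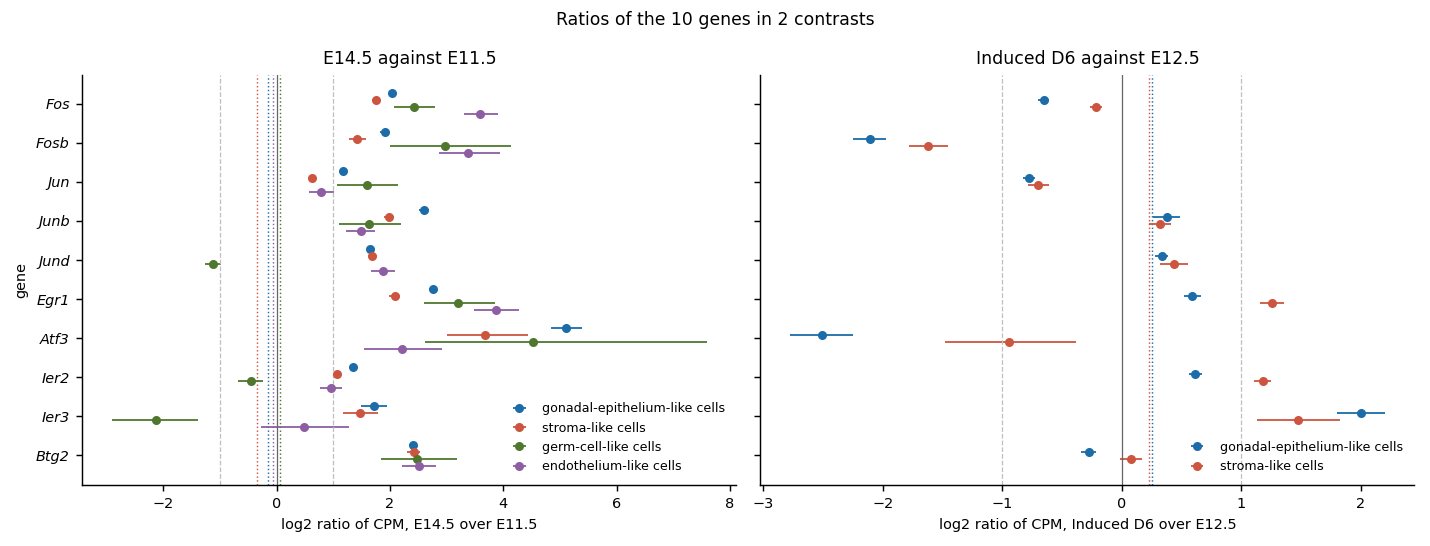
Points give the log2 ratio of CPM for each gene, E14.5 over E11.5 on the left and Induced D6 over E12.5 on the right, with colours for cell classes and bars for exact conditional binomial 95% intervals. On the left Atf3 reaches 5.11 in gonadal-epithelium-like cells and Jund lies at -1.12 in germ-cell-like cells and above 0 in the other classes drawn. On the right Ier3 lies at 2.00 and Atf3 at -2.51 in gonadal-epithelium-like cells.

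Against E11.5, 2 of 9 genes at 10 CPM or more, Ier3 (log2 ratio 2.24) and Egr1 (1.08), were at least 2-fold higher in Induced D6 gonadal-epithelium-like cells and 1, Fosb (-1.63), at least 2-fold lower. Among the 8498 genes of that comparison 8.37% were higher and 4.58% lower. Against E12.5 in stroma-like cells, Ier3 (1.47), Egr1 (1.25) and Ier2 (1.18) were at least 2-fold higher and Fosb (-1.62) at least 2-fold lower, where 13.4% of 8553 genes were higher and 3.88% lower. Jund, Junb and Btg2 had log2 ratios of 0.44, 0.32 and 0.08 there, and Fos, Jun and Atf3 of -0.22, -0.70 and -0.94. The median was 0.20 for the 10 genes and 0.22 for all genes, so the higher sum in stroma-like cells did not hold for the typical gene of the 10. Counts of 1 to 3 genes on a side among 10 genes are too few to set against such shares of all genes. Nothing about the 10 genes as a group is read from these counts. In whole-library sums against E12.5, 4 of the 10 genes, Ier3, Egr1, Ier2 and Junb, were higher and 2, Atf3 and Fosb, lower, where 15.9% of 8767 genes were higher and 6.89% lower. Fosb was lower in Induced D6 in all 4 of these comparisons and Ier3 higher. The comparisons share the Induced D6 library. Fos in supporting-lineage-like cells had 521 CPM in Induced D6 against 492 CPM at E12.5, and in coelomic-epithelium-like cells 189 CPM in Induced D6 against 490.1 CPM at E12.5. Coelomic-epithelium-like cells made up 1851 of the 3062 gonadal-epithelium-like cells in Induced D6 and 650 of 1767 at E12.5.

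Cell by cell, the difference between stages was visible in most cells. Each cell was thinned to 3000 UMIs so that depth was equal, and cells with fewer were left out, 29 of 3062 Induced D6 gonadal-epithelium-like cells and 97 of 1647 at E14.5. The share of these cells with a UMI of 5 or more of the 10 genes was 21.6% (exact Clopper-Pearson 20.1 to 23.1) in Induced D6, and 16.2, 19.2, 28.8, 49.6 and 74.0% in vivo (71.7 to 76.2 at E14.5). In stroma-like cells it was 67.8% in Induced D6 and 22.7, 33.7, 64.6, 53.4 and 73.6% in vivo. It was 0, 0, 0.295 and 0% in germ-cell-like cells from E11.5 to E14.5, where 0 of 1046 cells at E14.5 has an upper limit of 0.352%. In erythroid-like cells none of 114 at E10.5 and none of 77 at E11.5 held 5 or more. Median depths before thinning were 7195 UMIs in gonadal-epithelium-like and 9832 UMIs in germ-cell-like cells at E14.5.

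**Figure D3:**
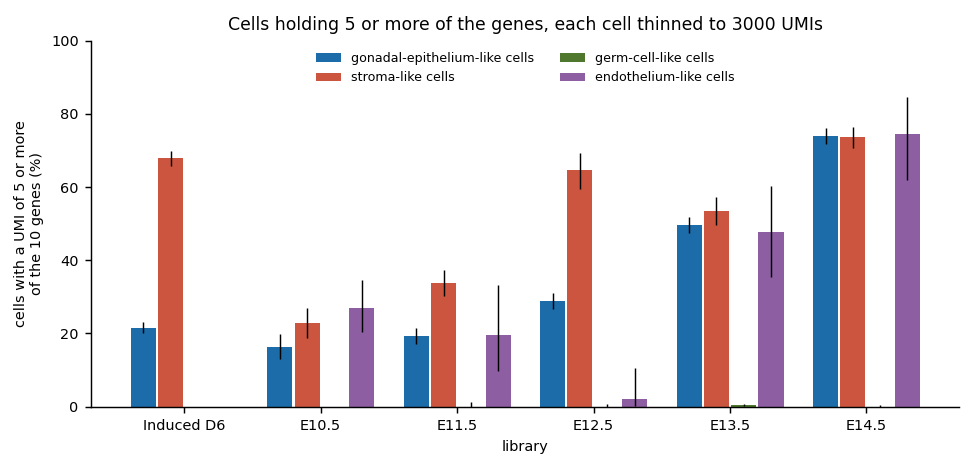
The vertical axis gives the percentage of cells with a UMI of 5 or more of the 10 genes after thinning to 3000 UMIs, the horizontal axis the library, with colours for cell classes and bars for exact 95% binomial intervals. Gonadal-epithelium-like cells reach 74.0% at E14.5, Induced D6 stroma-like cells 67.8%, and germ-cell-like cells stay near 0.

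The thinned gonadal-epithelium-like cells held a median of 4 UMIs of the 10 genes in Induced D6 and of 4, 4, 4, 8 and 15 in vivo. The 10% of cells with the highest counts held 29.0% of these UMIs in Induced D6, and 30.0, 27.8, 30.3, 29.3 and 23.9% in vivo. The share was lowest at E14.5, where cells also held the most UMIs of these genes. Cells with none of the 10 genes made up 3.79% in Induced D6 and 7.58, 6.10, 6.84, 1.68 and 0.516% in vivo. Without thinning, 67.3% of Induced D6 cells and 80.4 and 95.1% of E11.5 and E14.5 cells had a Fos UMI. After thinning these shares were 47.6, 51.9 and 89.4%, against 4.01 and 16.9% of germ-cell-like cells at E11.5 and E14.5. An Atf3 UMI was present in 1.62% of Induced D6 cells and in 5.89, 1.65, 9.29, 12.4 and 24.9% of cells in vivo.

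Fos and Junb, the one pair examined, were often found in the same cells. In thinned gonadal-epithelium-like cells at E14.5, 53.8% of cells with a Fos UMI also had a Junb UMI, against 27.4% of cells without Fos. The same pair of shares was 22.1 and 5.51% at E11.5 and 23.5 and 9.69% in Induced D6. In stroma-like cells it was 77.4 and 40.3% at E14.5 and 68.2 and 30.2% in Induced D6. In germ-cell-like cells at E13.5 the shares hardly differed, at 5.70 and 4.91%. Cells with Fos more often had Junb in each of the somatic classes and libraries given here, although cells are not replicates and differ in type within a class.

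Clusters of 50 or more cells differed widely within a library. The 10-gene sum over clusters ran from 1054 to 6104 CPM (median 2452) in Induced D6, and its median over clusters was 1457, 1347, 1938, 3299 and 5288 CPM in vivo. In Induced D6 the highest was a stroma-like cluster of 955 cells at 6104 CPM. Supporting-lineage-like clusters spanned 1179 to 2553 CPM at E12.5, 2356 to 4060 CPM at E13.5 and 3954 to 6574 CPM at E14.5. The lowest E14.5 supporting-lineage-like cluster therefore lay above the highest at E12.5, while clusters of E13.5 and E14.5 overlapped.

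**Figure D4:**
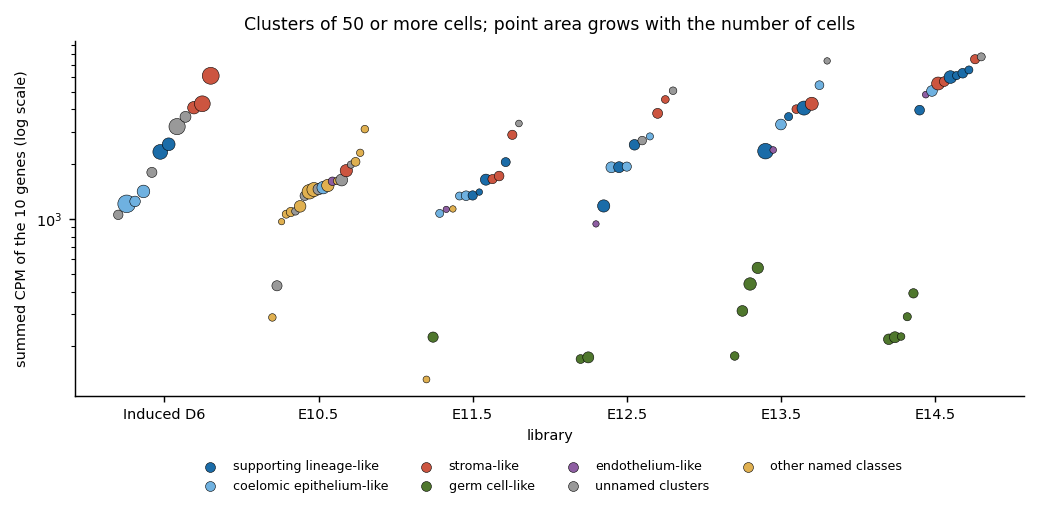
Each point is a cluster of 50 or more cells. The vertical axis is the summed CPM of the 10 genes (log scale), the horizontal axis the library, colours are cell classes, and point area grows with the number of cells. Somatic clusters lie highest at E14.5, with supporting-lineage-like clusters between 3954 and 6574 CPM at E14.5, and germ-cell-like clusters lie lowest there, whereas at E10.5 and E11.5 the lowest point is an erythroid-like cluster, at 288 and 132 CPM.

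Some of the highest sums were in unnamed clusters of low depth or mixed markers. An E14.5 cluster of 143 cells led by Itm2a, Tagln and S100a6 had 7752 CPM, the highest of any cluster. An E13.5 cluster of 58 cells, with a median of 1187.5 UMIs and led by Cd74, Tbata and Ccl21a, had 7366 CPM, and an E14.5 cluster of 47 cells, with a median of 1327 UMIs, had 6413 CPM. These last clusters hold 43 of the barcodes that the E13.5 and E14.5 libraries share, and no named class includes them. Leaving out all barcodes shared between libraries, an alternative chosen after seeing the data, changed no count of members called.

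A further 7 gene lists, holding no member, were read beside the 10 genes in gonadal-epithelium-like cells. Of 42 other immediate early and primary response genes, 35 reached 10 CPM at E14.5 or E11.5, and 21 were at least 2-fold higher and 3 lower (median log2 ratio 1.54, against -0.16 for all genes and with the same 8 and 14.2% of all genes). Zfp36, an mRNA-decay factor, had 123 CPM at E14.5 and 11.47 CPM at E11.5. Maff, a small MAF protein, had 28.7 and 3.02 CPM, Egr2, a relative of Egr1, 91.8 and 9.94 CPM, and Nr4a1, an orphan nuclear receptor, 160.2 and 29.0 CPM at E14.5 and E11.5. Dusp1, a MAP kinase phosphatase, and Klf6, a zinc finger factor, had log2 ratios of 2.08 and 1.81. All 6 were at least 2-fold higher. Maff and Egr2 reached 10 CPM at E14.5 only. Genes could thus enter the count through the stage where they were high, a rule that the shares of all genes follow too.

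Heat shock and chaperone genes stood the other way round. Of 14 genes at 10 CPM or more, of 16 in the list, 1 was at least 2-fold higher at E14.5 than at E11.5 and 7 lower (median -1.03). Among all genes 8% were as much higher and 14.2% as much lower. The list summed to 6819 CPM in Induced D6 and to 14064, 10526, 8439, 5552 and 5272 CPM in vivo. Hsp90aa1, a cytosolic chaperone, had 311 CPM at E14.5 and 1111 CPM at E11.5 (log2 ratio -1.84), and Hspd1 and Stip1, chaperones of protein folding, had ratios of -1.53 and -1.42. Dnajb1, an HSP40 co-chaperone, was the one higher gene (133 and 59.4 CPM, 1.16). Hspa1a and Hspa1b, the strictly stress-inducible HSP70 genes, stayed under 10 CPM, with 3.49 and 2.99 CPM at E14.5 and 3.34 and 0.511 CPM at E11.5.

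**Figure D5:**
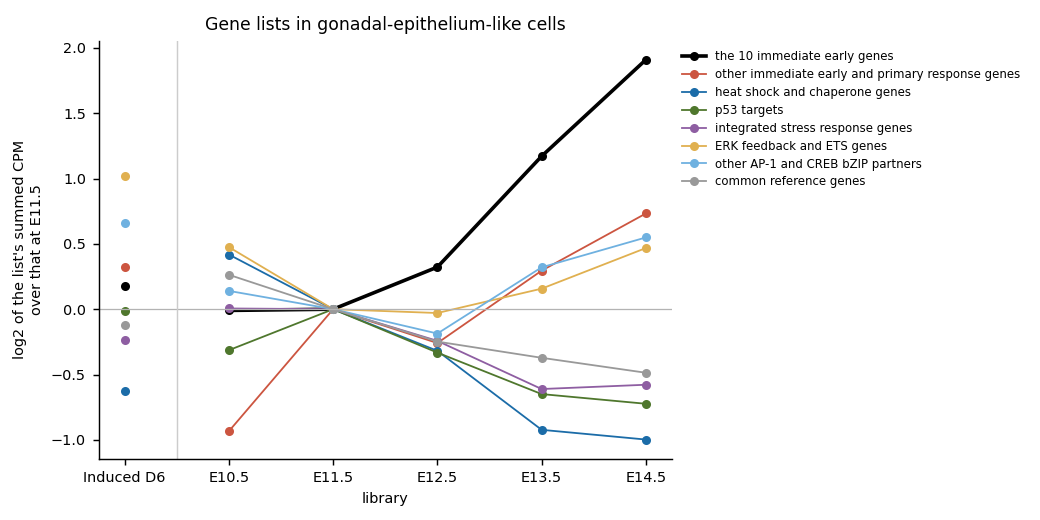
Lines give, for gonadal-epithelium-like cells, the log2 of each gene list's summed CPM over its value at E11.5, with the library on the horizontal axis and Induced D6 on the left. The 10 immediate early genes reach 5618 CPM at E14.5 against 1496 CPM at E11.5, while heat shock genes stand at 5272 against 10526 CPM.

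The other lists moved little or in mixed directions at E14.5 against E11.5. Of 7 p53 targets at 10 CPM or more, 1 was at least 2-fold higher (Trp53inp1, log2 ratio 1.20) and 2 lower (Cdkn1a, a cell cycle inhibitor, -1.51, and Aen, -1.17), and Mdm2, the ubiquitin ligase of p53, had 23.6 and 22.3 CPM. Of 9 integrated stress response genes, 2 were higher (Ppp1r15a 2.24 and Ddit3 1.25) and 2 lower (Asns -3.78 and Phgdh -1.84, both enzymes of amino acid synthesis), and Atf4, the pathway's central factor, had a ratio of 0.32. Of 6 ERK feedback and ETS genes, 2 were higher (Dusp5 2.77 and Spry2 1.71) and none lower. Spred1 and Dusp6, the phosphatase that ERK induces against itself, had ratios of 0.87 and 0.02. Of 9 other AP-1 and CREB partners 2, Fosl2 (2.39) and Maf (1.37), were higher and 1 lower. Of 10 common reference genes none was higher and 3, Pgk1 (-2.23), Gapdh (-1.50) and Sdha (-1.06), were lower.

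In Induced D6 against E12.5 the lists gave another profile. Of 8 ERK feedback and ETS genes at 10 CPM or more, 6 were at least 2-fold higher in Induced D6 and 1 lower (median log2 ratio 1.59, against 0.25 for all genes). Among all genes of that comparison 12.1% were as much higher and 4.14% as much lower. Dusp5 had 125 CPM in Induced D6 and 11.96 CPM at E12.5, Dusp6 56.5 and 11.1 CPM, and Etv4, an ETS factor downstream of FGF, 13.54 and 2.11 CPM. Etv4 thus reached 10 CPM in Induced D6 only. Of 31 other immediate early genes 13 were higher and 2 lower. Maff (2.22), Zfp36 (2.08) and Gadd45b (2.03) were higher, whereas Nr4a1, Dusp1 and Klf6 had ratios of 0.65, 0.22 and -0.06.

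Of 14 heat shock genes none was higher in Induced D6 than at E12.5 and 1, Hsph1 (-1.71), was lower, with Hsp90aa1 and Hspe1 at -0.83 and -0.79. Dnajb1 had 64.8 CPM in Induced D6 and 52.8 CPM at E12.5. Among p53 targets Phlda3 (2.40) and Ccng1 (1.21) were higher and none lower, with Mdm2 at 0.85 and Cdkn1a at -0.54. Ddit3 (1.55) and Ddit4 (1.49) were higher among integrated stress response genes, with Ppp1r15a at 0.98 and Atf4 at 0.65. Of 9 other AP-1 and CREB partners 4 were higher, Maf (1.82) and Fosl2 (1.26) among them, and none lower. No reference gene passed 2-fold, and Tbp, Pgk1 and Hprt had ratios of 0.73, 0.52 and 0.43.

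Measures of RNA quality differed between the stages as well. Mitochondrial transcripts made up 3.92% of UMIs in Induced D6 gonadal-epithelium-like cells and 3.05, 3.42, 3.56, 4.70 and 5.66% in vivo. Their median depth was 6983 UMIs in Induced D6 and 6904, 11783, 9668, 8465.5 and 7195 UMIs in vivo. Within this class the share of mitochondrial transcripts was thus highest where the 10 genes were highest, at E14.5. In stroma-like cells it was 3.45% in Induced D6, where the 10 genes took 4878 CPM. In vivo it was 2.96, 3.15, 3.32, 3.61 and 3.73% there, with 6045 CPM at E14.5. Between the classes at E14.5, the larger sum thus went with the smaller mitochondrial share. The part of RNA quality in the immediate early gene levels was not tested, nor was that of dissociation, and with 1 library per stage neither can be told apart from stage.

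The genes whose levels ran most like the 10 were sought over 42 class sums, those of unnamed cells included, by Pearson's r between log2(CPM + 10) of a gene and the members' mean standardised level. The sums of a library share its preparation and depth, and several classes come from each library, so r is a description. Ctdsp1, a small CTD phosphatase, had the highest value (0.904), followed by Zfp36l1 (0.889), an mRNA-decay factor, Hes1 (0.886), a Notch-responsive repressor, and Socs1 (0.868), an inhibitor of cytokine signalling. Slc39a13, Egr2, Zfp362, Spats2l, Cflar and Pnrc1 had values of 0.864, 0.864, 0.860, 0.860, 0.859 and 0.858. The median over 8724 genes was 0.191. Among the members set against the other 9, Egr1 (0.955) and Fos (0.951) ran most with the rest, and Ier3 (0.681) and Atf3 (0.675) least. By list, the median r was 0.587 for the other immediate early genes, 0.297 for ERK feedback genes and -0.079 for heat shock genes.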

How the data were processed

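Gene expression was measured by 10x Chromium 3′ v2 single-cell RNA-seq in 6 libraries, 1 per group. Per the submitters' processing notes, reads were processed with Cell Ranger 3.0.2 on mm10. The deposited matrices hold UMI counts per gene and barcode, which the authors had not normalized. How barcodes were called as cells is not given in the sources used here.

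Kept cells had 500 genes or more and no more than 10% mitochondrial UMIs. Likely doublets (Scrublet, at 0.8% per 1000 cells) were removed, 59 to 452 per library. The caller's automatic cut marked 0.016 to 3.84% of cells, which is too uneven to use, so the rate was set by the number of cells. Cells were clustered per library in scanpy 1.11.5 (2000 variable genes, 30 components, 15 neighbours, Leiden resolution 1) without the members and the stress lists. A cluster was called "-like" from marker genes at least 1.5-fold above the rest, and otherwise stayed unnamed. Classes under 50 cells entered no comparison, and erythroid-like classes of 23 to 39 cells are given only beside germ-cell-like values.

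UMIs were summed per class and divided by the class total to give CPM, which 3′ counting leaves free of gene length. With 1 library per group there is no test. Levels have exact Poisson and ratios exact conditional binomial 95% intervals, which leave out all variation between embryos or cultures. A gene was called at 2-fold or more, among genes at 10 CPM or more in either sum. Shares of cells used cells thinned to 3000 UMIs. Promoters were read from a RefSeq table and positions from GENCODE vM21. The scripts were tested on simulated data with 200 changed genes.

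The members and lists were chosen with earlier results of these data known. The text names all 10 members, for each other list the 3 genes with the largest ratio in gonadal-epithelium-like cells at E14.5 against E11.5 and in Induced D6 against E12.5, 12 genes always reported (such as Hspa1a, Dusp1, Cdkn1a and Atf4), and the 10 genes most like the members. The values of a list gene that this rule also selects are not reported here. The alternatives tried were other filters, doublets kept, other clusterings, other scalings, other thresholds and thinning depths.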

Additional observations from a re-analysis of the deposited data

Results flagged for a closer look

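Jund differed in opposite directions between E14.5 and E11.5 in germ-cell-like and somatic cells of the same libraries. Its log2 ratio of E14.5 over E11.5 was -1.12 in germ-cell-like cells, 1.66 in gonadal-epithelium-like cells and 1.69 in stroma-like cells. With 1 library per stage, the difference between these ratios was not tested. In germ-cell-like cells at E14.5 Jund stood at 64.4 CPM, at or below its level in the 39 erythroid-like cells of that library, and at E11.5 it stood at 139.9 CPM.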

How the results depend on the processing

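The 13 comparisons were recomputed under 16 alternatives, and no count of called members turned its direction. For gonadal-epithelium-like cells at E14.5 against E11.5, 5 to 10 of the 10 genes were higher and 0 lower under all of them, and the median log2 ratio stayed between 1.86 and 2.21. For Induced D6 the median of the 10 genes changed sign within classes. In gonadal-epithelium-like cells it ran from -0.22 to 0.33 against E12.5 and from -0.13 to 0.65 against E11.5. In stroma-like cells it ran from -0.03 to 0.53 against E12.5. Where not named otherwise, values below are the alternative's count and then the count reported above, in gonadal-epithelium-like cells. Shares of all genes are given only at 2-fold and a minimum of 10 CPM. Nothing about the 10 genes as a group is therefore read from counts at other limits.

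At 4-fold, 5 of 10 genes were higher at E14.5 than at E11.5, 0 in place of 4 at E13.5 against E12.5 and 0 in place of 2 at E14.5 against E13.5. For Induced D6 at 4-fold, 0 in place of 1 were higher against E12.5, and 1 in place of 2 higher and 0 in place of 1 lower against E11.5. In stroma-like cells at 4-fold, 3 in place of 9 were higher at E14.5, and 0 in place of 3 higher and 0 in place of 1 lower in Induced D6. At 4-fold also, 0 in place of 1 were lower in germ-cell-like cells, and in whole libraries 4 in place of 8 were higher at E14.5, and 1 in place of 4 higher and 0 in place of 2 lower in Induced D6.

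At 1.5-fold, 3 in place of 1 were higher at E12.5 against E11.5, 7 in place of 4 at E13.5 against E12.5 and 8 in place of 2 at E14.5 against E13.5. For Induced D6 against E12.5 at 1.5-fold, 3 in place of 1 were higher and 4 in place of 2 lower, and in stroma-like cells 3 in place of 1 lower. With a minimum of 50 CPM, 0 in place of 1 were higher at E12.5 against E11.5, 1 in place of 2 lower in Induced D6 against E12.5, 1 in place of 6 higher in germ-cell-like cells, and 1 in place of 2 lower in whole Induced D6 libraries.

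At E14.5 against E13.5, 5 in place of 2 were higher with clusters made from all variable genes and 4 with classes set cell by cell. For Induced D6 against E11.5, 1 in place of 2 were higher without a filter on cells, at cluster resolution 2 and with ratios centred on the median gene. In Induced D6 stroma-like cells, 2 in place of 1 were lower with classes set cell by cell, with a total lacking mitochondrial, ribosomal and haemoglobin genes, with centred ratios and with thinned cells. In germ-cell-like cells, 0 in place of 1 were lower with doublets kept, and 2 with the reduced total, with thinned cells, with cells weighted equally and with no minimum CPM. The cause of these changes was not tested, except that the thresholds change the counts by construction.

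Among ratios of single genes, 1462 stayed within their counting interval and 541 did not. The 10 that changed sign stayed under 2-fold, except Ier3 in endothelium-like cells, whose log2 ratio of 0.48 became 1.06 with cells weighted equally. Endothelium-like cells gave no value with at least 1000 genes and at most 5% mitochondrial UMIs, since fewer than 50 cells were left. No paired analysis was possible because each group has 1 library. Leaving out barcodes shared between libraries was added after seeing the data. The counting intervals are narrow for Fos and wide for Atf3 and Ier3 in small classes, and none covers variation between embryos or cultures, which limits every comparison.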

Other observations

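Beyond the named classes, the 10 genes were also high in unnamed cells. An E12.5 cluster of 118 cells led by Egfl6, Pax8 and Lypd1 had a 10-gene sum of 5054 CPM, and an E11.5 cluster of 71 cells led by Plac8 and Pax8 had 3342 CPM, each the highest of its library. Pax8 is a transcription factor of the mesonephric and ductal lineages, but both clusters stayed unnamed and their lineage was not determined. At E10.5 the mesonephric-tubule-or-duct-like cells were the highest class of their library.

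Leukocyte-like cells were numerous enough for a level at E11.5 only, where the 10 genes took 1135 CPM in 58 cells and Atf3 26.6 CPM. Erythroid-like cells had 132 CPM at E11.5 in 78 cells.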
